A study of Mus musculus with 4 samples.

Results

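Translation initiation factors are the proteins that bring the small ribosomal subunit, the initiator transfer RNA and a messenger RNA together and find the start codon. Their genes were taken from the deposited expression table by symbol. All genes named Eif followed by a digit from 1 to 6 were kept, apart from the kinases of eIF2 (Eif2ak) and the eIF4E-binding proteins (Eif4ebp), which are regulators. After rows that are numbered copies of a gene had been summed, this gave 49 genes from 51 rows, of 24727 genes in all. The cells were mouse CD4+ T cells, isolated from spleen as naive cells and cultured for 5 days toward T helper 1 (Th1) cells, with no further culture agents named in the labels. They were given the vehicle, phosphate-buffered saline (PBS), in 2 libraries or the cytokine interleukin-16 (IL-16) in the other 2 libraries, and polyadenylated RNA was sequenced. The labels give no strain, age or dose. Nothing in them says that same-group libraries had different animals or cultures as their source, so p-values cover only library-to-library spread, possibly technical.

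Values were read as FPKM, a read count scaled by transcript length and by library total. The deposited table names no unit, and the depth behind the values is unknown. Summed FPKM per library were between 373924 and 391153. The source labels name peritoneal macrophages, whereas the titles name Th1 cells. The 10 markers of CD4+ T cells had a median of 174 to 184 FPKM across libraries, against 0.115 to 0.162 FPKM for the 8 macrophage markers. The macrophage markers summed to 4.85 and 5.41 FPKM with PBS and to 5.09 and 6.32 FPKM with IL-16, mostly from Cd68, and Fcgr1 was at 0 in every library. The 5 B cell markers were each lower in both IL-16 libraries, with sums of 3.13 and 4.09 FPKM under PBS and 1.71 and 2.11 FPKM under IL-16. Ms4a1 was at 0 in both IL-16 libraries, and the part of these cells in the results was not tested. Medians for markers of B, NK and dendritic cells stayed below 1 FPKM, with Klrd1 the highest single marker among these at up to 17.7 FPKM, and those of CD8 T cells lay between 4.12 and 4.99 FPKM.

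In eukaryotic cells, eIF2 carries the initiator transfer RNA and is recharged by eIF2B, which is the step that stress kinases block. The complex eIF4F, made of the cap-binding protein eIF4E, the scaffold eIF4G and the helicase eIF4A, recruits the messenger RNA, and the large complex eIF3 holds the parts together on the small subunit. eIF1, eIF1A and eIF5 guard start codon choice, and eIF5B joins the large subunit. Activated T cells raise protein synthesis strongly when they leave quiescence, and mTORC1 and Myc are known to drive this machinery.

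No initiation factor gene passed the threshold between IL-16 and PBS, and the differences measured were small. In limma, 0 of 46 tested members had an adjusted p under 0.05, where 1.11% of all 11307 tested genes did (0.646% higher and 0.469% lower with IL-16). At an unadjusted p under 0.05 there were 12 members, 10 lower and 2 higher with IL-16, which is 26.1% of the members against 25.8% of all tested genes (10.2% higher, 15.5% lower). The share is close to the background and is no result about the members. At an adjusted p under 0.10 there were 5 members, all lower (10.9% of members; over all tested genes the share was 8.85%, with 5.06% lower and 3.79% higher). These were Eif3m, Eif1a, Eif4a2, Eif3e and Eif4a3. The median log2 fold change was -0.023, beside -0.047 over all tested genes, and its size was 0.15 in the median member and 0.16 in the median gene. Of the 46 members 27 were below 0, beside 58.2% of all tested genes. When libraries were scaled by median of ratios, 22 members were below 0. That scaling moved the whole table, with a median of 0.018 for the members and -0.0028 for all tested genes.

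The other 3 members, Eif2s3y, Eif4a3l1 and Eif4e1b, were listed at 0 in every library and were not tested. The filter required 1 FPKM in at least 2 libraries, and all 46 tested members reached it in all 4 libraries. Summed over members, the genes held 1.06% and 1.06% of all FPKM with PBS and 1.03% and 1.02% with IL-16. The groups did not overlap, but the exact permutation test of 2 against 2 libraries cannot go below p = 0.333 (two-sided), and that was its value.

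**Figure D1:**
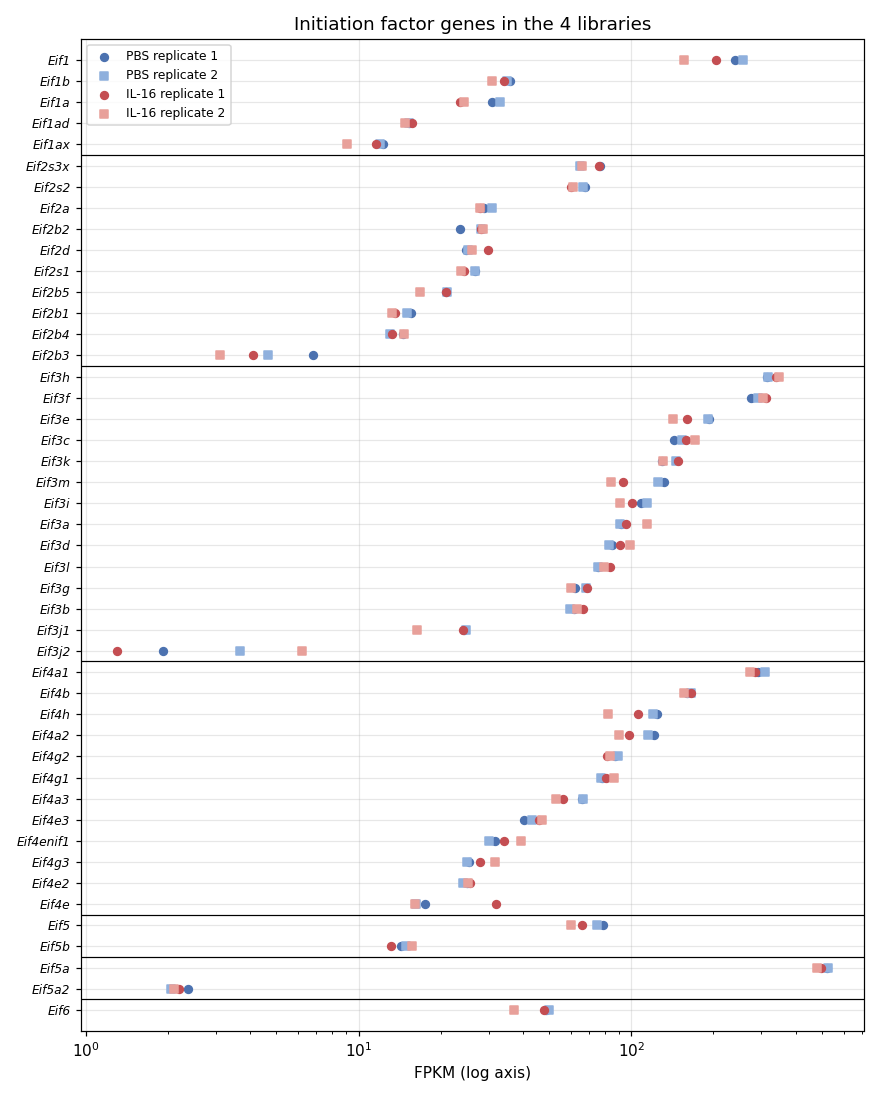
FPKM of the 46 tested initiation factor genes (rows, grouped by factor and ordered by mean level; log axis), with a point for each of the 2 PBS libraries (blue, circle for replicate 1 and square for replicate 2) and 2 IL-16 libraries (red, same shapes). Mean levels run from 2.18 FPKM for Eif5a2 to 507 FPKM for Eif5a, and most genes keep the 4 points close together, with Eif3j2, Eif2b3 and Eif4e as the clearest exceptions.

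Levels per length differed widely between subunits of the same complex. Among the eIF3 genes, Eif3h had a mean over the 4 libraries of 329 FPKM, Eif3f 295 FPKM and Eif3e 171 FPKM, and their ranges did not overlap. Eif3g and Eif3b, next to each other in the order of levels, had means of 64.7 and 62.6 FPKM with overlapping ranges, and the loosely attached subunit genes Eif3j1 and Eif3j2 were lowest at 22.4 and 3.28 FPKM. The eIF4F genes lay at 289 FPKM for Eif4a1, 80.7 FPKM for Eif4g1 and 20.5 FPKM for Eif4e, again without overlap.

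The IL-16 libraries were not alike. Relative to the PBS mean, the median member was at -0.036 on the log2 scale in IL-16 replicate 1 but at -0.088 in the other IL-16 library, replicate 2, and 33 of 46 members were further from the PBS mean in replicate 2, as were 7662 of the 11307 tested genes. The same medians over all tested genes were -0.021 and -0.065. The share of FPKM held by cytosolic ribosomal protein genes was 16.1% and 16.2% with PBS, 14.8% in IL-16 replicate 1 but 13.1% in IL-16 replicate 2, and its part in these results was not tested. The number of calls depended on the library left out, with the lone library of a group assumed to vary like the other group. Without IL-16 replicate 1, 20 members passed, 6 higher and 14 lower (28.2% of all tested genes passed). Without IL-16 replicate 2, 6 members passed, 5 lower and 1 higher (6.41% of all). Without PBS replicate 1 or PBS replicate 2, 0 members passed (0.0359% and 0.126% of all), with 3 and 4 at an unadjusted p under 0.05, which are 6.52% and 8.70% of the members against 11.7% and 13.0% of all tested genes. In both fits that leave out an IL-16 library, which share the PBS libraries, 5 of 46 members (10.9%) passed, against 5.85% of all 11099 genes tested in both. They were Eif1, Eif1a, Eif3e, Eif3m and Eif4a2, all lower.

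**Figure D2:**
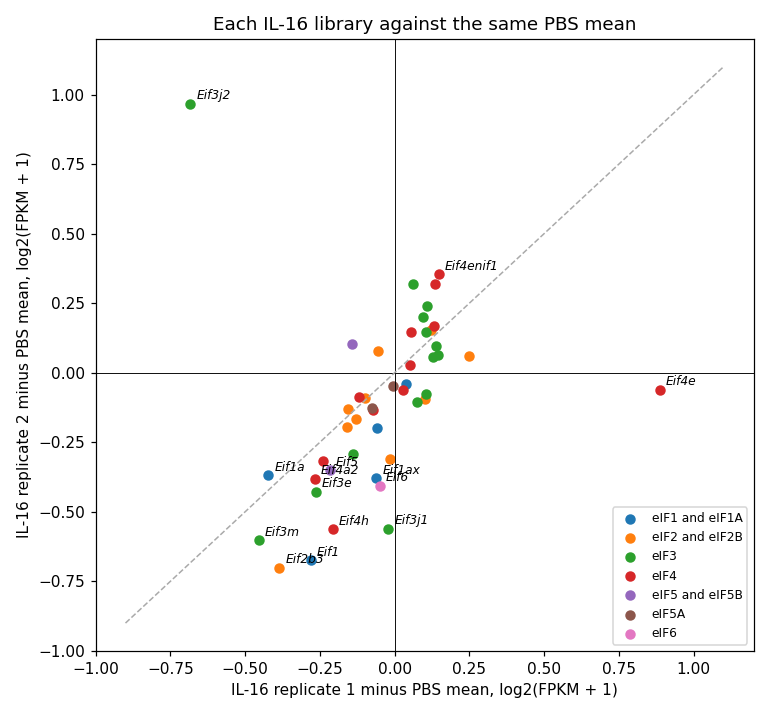
Difference of IL-16 replicate 1 (horizontal) and IL-16 replicate 2 (vertical) from the mean of the PBS libraries on the log2(FPKM + 1) scale, 1 point per tested member, coloured by factor; the dashed line marks equal differences. Both axes share the PBS mean, so agreement along the line is partly built in. Eif3m lies at -0.46 and -0.60, whereas Eif4e lies at 0.89 and -0.061.

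eIF1 and eIF1A open the small subunit for scanning and reject wrong start codons. Their genes, and Eif1ad grouped with them by symbol, all had a log2 fold change below 0, where 58.2% of tested genes did. Eif1ad turned positive under median-of-ratios and TPM scaling, and none of the 5 genes passed. Eif1, the most abundant of them, was 241 and 257 FPKM in the vehicle libraries and 205 and 155 in those given IL-16 (log2 fold change -0.48, 95% interval -0.81 to -0.14, adjusted p = 0.111). Both IL-16 values lay below both PBS values, and the IL-16 libraries were further apart than the PBS libraries. Eif1a, which encodes eIF1A, was 30.8 and 32.9 FPKM under PBS against 23.5 and 24.4 under IL-16 (log2 fold change -0.40, 95% interval -0.59 to -0.21, adjusted p = 0.0685). Here the IL-16 libraries were close together and below PBS. Its X-linked paralogue Eif1ax was 12.3 and 12.0 FPKM in the vehicle libraries and 11.6 and 9.10 in those given IL-16 (log2 fold change -0.22, adjusted p = 0.307), with IL-16 replicate 2 standing below the other libraries. Eif1b, the eIF1 paralogue, was 35.9 and 35.1 FPKM under PBS against 34.03 and 30.8 under IL-16 (log2 fold change -0.13, adjusted p = 0.352). The level of Eif1b was 14.9% and 13.7% with PBS and 16.6% and 19.8% with IL-16 of that of Eif1, a ratio also chosen after its values were seen (exact permutation p = 0.333). Eif1ad, an eIF1A-domain gene, did not separate the groups (15.3 and 15.3 FPKM in the vehicle libraries and 15.7 and 14.8 in those given IL-16), with a log2 fold change of -0.0017.

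Among the genes of eIF2 and its exchange factor eIF2B, 10 of 11 were tested, 6 were below 0 and none passed. The α and β subunit genes Eif2s1 and Eif2s2 were lower in both IL-16 libraries. Eif2s1, the subunit that stress kinases phosphorylate, was 26.8 and 26.7 FPKM under PBS against 24.4 and 23.7 under IL-16 (log2 fold change -0.15, 95% interval -0.33 to 0.029, adjusted p = 0.256). Eif2s2 was 67.8 and 66.6 FPKM in the vehicle libraries and 60.3 and 61.3 in those given IL-16 (log2 fold change -0.14, 95% interval -0.31 to 0.023, adjusted p = 0.244). The γ subunit gene Eif2s3x overlapped between groups at 77.0 and 64.9 FPKM under PBS against 75.9 and 66.1 under IL-16 (log2 fold change 0.0024, adjusted p = 0.992). Of the 5 eIF2B subunit genes, Eif2b3 was the least abundant and had the widest difference. It was 6.80 and 4.67 FPKM in the vehicle libraries and 4.09 and 3.09 in those given IL-16 (log2 fold change -0.54, 95% interval -1.01 to -0.078, adjusted p = 0.154), and in FPKM the PBS libraries differed from each other by more than PBS replicate 2 differed from either IL-16 library. Eif2b1 was 15.6 and 15.0 FPKM under PBS against 13.6 and 13.2 under IL-16 (log2 fold change -0.18, adjusted p = 0.230). Eif2b5, the catalytic subunit gene, was 21.0 and 21.2 FPKM in the vehicle libraries and 20.8 and 16.8 in those given IL-16 (log2 fold change -0.16, adjusted p = 0.397), so that IL-16 replicate 2 alone stood apart. Eif2b2 and Eif2b4 overlapped between groups, with log2 fold changes of 0.14 and 0.012. Eif2a and Eif2d encode factors that can deliver initiator transfer RNA without eIF2. Their log2 fold changes were -0.095 and 0.15 (adjusted p = 0.456 and 0.321).

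The eIF3 genes went in both directions, with 9 of 14 above 0 and 5 below (Eif3g flipped to above 0 under median-of-ratios and TPM scaling), a median of 0.098 and none past the threshold. Eif3m, a subunit of the PCI-domain core, came closest of all members. It was 132 and 125 FPKM under PBS against 93.4 and 84.2 under IL-16, a ratio of means of 0.692 (log2 fold change -0.53, 95% interval -0.73 to -0.33, adjusted p = 0.0502). Both IL-16 values lay far below both PBS values relative to the spread within each group. Eif3m passed in 8 of 14 alternatives, with adjusted p between 0.00111 and 0.324, and its log2 fold change stayed between -0.60 and -0.46. It did not pass without PBS replicate 1 (adjusted p = 0.324) or PBS replicate 2 (0.233), with no filter on low values (0.186), with copies not summed (0.0867), at a pseudocount of 0.1 (0.0536) or with a mean of at least 1 FPKM as the filter (0.0502). In the GENCODE annotation of GRCm38 it overlaps Ccdc73 on the opposite strand, and Ccdc73 did not exceed 0.360 FPKM. Eif3e, another PCI-domain subunit, was 193 and 191 FPKM in the vehicle libraries and 159.6 and 142 in those given IL-16 (log2 fold change -0.35, 95% interval -0.55 to -0.14, adjusted p = 0.0884), and again the groups did not overlap. Eif3i, a small WD-repeat subunit, was 109 and 114 FPKM under PBS against 101 and 90.7 under IL-16 with its copy row summed (log2 fold change -0.22, 95% interval -0.42 to -0.012, adjusted p = 0.177). With copies not summed, the row Eif3i alone had a log2 fold change of -0.16 (limma, unadjusted p = 0.0913).

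Most other subunit genes of the eIF3 core were slightly higher in both IL-16 libraries, with intervals that included 0. The scaffold gene Eif3a was 92.0 and 91.1 FPKM in the vehicle libraries and 95.6 and 115 in those given IL-16 (log2 fold change 0.19, 95% interval -0.055 to 0.44, adjusted p = 0.284). Eif3d, whose product can bind the cap of some messenger RNAs, was 85.1 and 82.9 FPKM under PBS against 90.7 and 99.3 under IL-16 (log2 fold change 0.17, 95% interval -0.016 to 0.36, adjusted p = 0.222). Eif3c was 144 and 154 FPKM in the vehicle libraries and 159 and 171 in those given IL-16 (log2 fold change 0.15, adjusted p = 0.302). Eif3h and Eif3f, which encode the MPN-domain pair, were the most abundant eIF3 genes at 315 ± 2.50 FPKM under PBS against 344 ± 6.62 FPKM under IL-16 (SD, n = 2 each) and 283 ± 13.0 FPKM under PBS against 308 ± 6.28 FPKM under IL-16 (SD, n = 2 each). Eif3b and Eif3l had log2 fold changes of 0.093 and 0.10, with all IL-16 values above PBS. Eif3g and Eif3k overlapped between groups (log2 fold change -0.015 and 0.013).

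Set against Eif3h on the per-length FPKM scale, Eif3m stood at 42.1% and 39.4% with PBS and 27.5% and 24.2% with IL-16. The level of Eif3e was 61.5% and 60.2% with PBS and 47.1% and 40.8% with IL-16 of that of Eif3h. These ratios were chosen after the values had been seen, and for both the exact permutation p was 0.333, the smallest that 2 against 2 libraries allow. Any ratio that separates the groups gets this p, so it adds nothing. Ratios of Eif4e to Eif4e2 and to Eif4e3, Eif5a2 to Eif5a, Eif3j2 to Eif3j1 and Eif1ax to Eif1a overlapped between groups. Those of Eif3m to Eif3f, Eif4a3 to Eif4a1, Eif4e3 to Eif4e2, and Eif4g2 and Eif4g3 to Eif4g1 did not. The loosely attached subunit eIF3j has 2 genes in the mouse. Eif3j1 was 24.4 and 24.8 FPKM under PBS against 24.2 and 16.4 under IL-16 (log2 fold change -0.29, 95% interval -0.71 to 0.13, adjusted p = 0.325), with only IL-16 replicate 2 standing low. Eif3j2 was 1.92 and 3.67 FPKM in the vehicle libraries and 1.30 and 6.22 in those given IL-16, so the lowest and the highest value both came from IL-16 libraries (log2 fold change 0.14, 95% interval -1.14 to 1.43, adjusted p = 0.888). Eif3j1 and Eif3j2 are near-identical, and the counting could divide shared reads between them, which leaves both values uncertain.

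**Figure D3:**
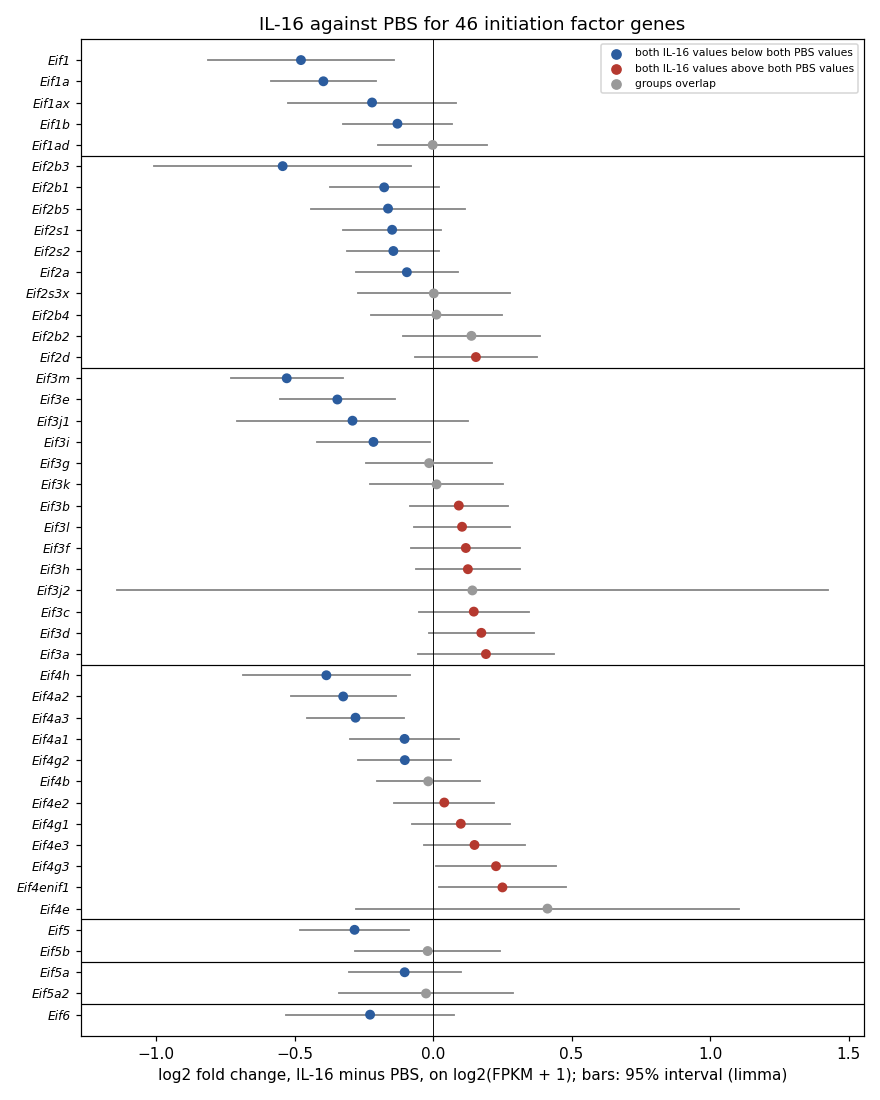
Log2 fold change of each tested member (points) with its 95% interval from limma (bars), grouped by factor and ordered within the group; blue and red mark members whose IL-16 values both lie below or above both PBS values, grey marks overlap. In eIF3 the interval of Eif3m runs from -0.73 to -0.33 and that of Eif3a from -0.055 to 0.44.

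In 35 of 46 members (76.1%) the groups did not overlap, against 60.0% of all tested genes, with 22 lower (35.6% of all genes) and 13 higher (24.3%). Under median-of-ratios scaling the count was 34 (19 lower, 15 higher), beside 59.4% of all genes (3343 lower, 3379 higher). After rescaling to TPM it was 37 (22 lower, 15 higher), beside 59.8% of all genes (3708 lower, 3053 higher). With 2 libraries a group such separation is common across the whole table, and it is given as a description. The median standard error of the log2 fold change in limma was 0.083 for the members and 0.108 for all tested genes. The part of this smaller spread in the share was not tested.

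The eIF4 genes were also divided, with 6 of 12 tested members above 0 and 6 below (Eif4b flipped to above 0 under median-of-ratios and TPM scaling) and none past the threshold. The cap-binding protein gene Eif4e was 17.5 and 16.2 FPKM under PBS against 32.0 and 16.1 under IL-16 (log2 fold change 0.41, 95% interval -0.28 to 1.11, adjusted p = 0.393). IL-16 replicate 1 stood 0.89 above the PBS mean on the log2 scale, while IL-16 replicate 2 stood beside the PBS libraries. Without IL-16 replicate 1 the log2 fold change was -0.061, and without IL-16 replicate 2 it was 0.89. In the genes of its relatives the IL-16 libraries lay close together. Eif4e2, which encodes the cap-binding repressor 4EHP, was 25.1 and 24.1 FPKM in the vehicle libraries and 25.5 and 25.1 in those given IL-16 (log2 fold change 0.040, adjusted p = 0.759). Eif4e3, an atypical cap-binding member, was 40.2 and 43.1 FPKM under PBS against 45.7 and 46.9 under IL-16 (log2 fold change 0.15, adjusted p = 0.261). Eif4enif1, the eIF4E transporter that stores eIF4E-bound messages, was 31.5 and 30.01 FPKM in the vehicle libraries and 34.2 and 39.6 in those given IL-16 (log2 fold change 0.25, 95% interval 0.022 to 0.48, adjusted p = 0.169).

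Of the helicase genes, Eif4a1, the main eIF4A of dividing cells, was 291 and 308 FPKM under PBS against 284 and 273 under IL-16 (log2 fold change -0.10, 95% interval -0.30 to 0.093, adjusted p = 0.448). Its paralogue Eif4a2 was 121 and 116 FPKM in the vehicle libraries and 97.9 and 90.4 in those given IL-16 (log2 fold change -0.32, 95% interval -0.51 to -0.14, adjusted p = 0.0854). The level of Eif4a2 was 41.5% and 37.5% with PBS and 34.4% and 33.1% with IL-16 of that of Eif4a1, a ratio chosen after seeing the values that did not overlap between groups (exact permutation p = 0.333, the smallest possible). In GENCODE, Eif4a2 overlaps Rfc4 on the opposite strand. The level of Rfc4 was 13.5 and 14.7 FPKM under PBS against 10.04 and 9.59 under IL-16 (log2 fold change -0.48, adjusted p = 0.0680), and whether the counting used strand is not given in the sources used here. On opposite strands, Eif2d also overlaps Rassf5 (PBS mean 87.0 FPKM), Eif1ad Banf1 (53.1), Eif2a Serp1 (49.9), Eif2b4 Snx17 (42.1) and Eif4enif1 Drg1 (33.9). Each of these overlapping genes was lower in both IL-16 libraries. In the same order, their log2 fold changes were -0.11, -0.49, -0.34, -0.17 and -0.48 (limma, adjusted p = 0.345, 0.0502, 0.111, 0.245 and 0.0703). The PBS means of these overlapping genes exceed those of the members. With IL-16, however, Drg1 had a mean of 24.0 FPKM, below the 36.9 FPKM of Eif4enif1. Eif2s2, Eif3j1 and Eif5b overlap coding genes at lower levels, whose log2 fold changes were 0.26, 0.10 and 0.048. Eif4e3 overlaps Gm20696 on the same strand. The part of such overlaps in the values was not tested. Eif4a3, whose product works mainly in the exon junction complex, was 66.2 and 66.5 FPKM in the vehicle libraries and 56.0 and 53.0 in those given IL-16 (log2 fold change -0.28, 95% interval -0.45 to -0.11, adjusted p = 0.0941). The helicase cofactor gene Eif4h was 124 and 120.3 FPKM under PBS against 106 and 82.2 under IL-16 (log2 fold change -0.39, 95% interval -0.69 to -0.084, adjusted p = 0.134), with IL-16 replicate 2 well below replicate 1. Eif4b, the other cofactor gene, overlapped between groups at 163 ± 3.76 FPKM under PBS against 161 ± 7.32 FPKM under IL-16 (SD, n = 2 each).

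The scaffold gene Eif4g1 was 78.1 and 77.5 FPKM in the vehicle libraries and 80.8 and 86.2 in those given IL-16 (log2 fold change 0.10, adjusted p = 0.416). Eif4g3, its paralogue, was 25.4 and 25.002 FPKM under PBS against 27.8 and 31.6 under IL-16 (log2 fold change 0.23, 95% interval 0.011 to 0.44, adjusted p = 0.179). Eif4g2, which encodes DAP5, a scaffold that lacks the eIF4E-binding site, was 87.4 and 89.5 FPKM in the vehicle libraries and 81.4 and 83.3 in those given IL-16 (log2 fold change -0.10, adjusted p = 0.386). Both IL-16 values were above PBS for Eif4g1 and Eif4g3 and below PBS for Eif4g2, with intervals that included 0 for Eif4g1 and Eif4g2.

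Promoter windows are shown for the eIF4F genes Eif4e, Eif4a1 and Eif4g1 and for Eif3m, which had the smallest p. They come from RefSeq (GRCm38.p6), span 300 bases around an annotated start and were matched by symbol, whereas the submitters' processing notes name GRCm39 for the reads. Capitals mark CACGTG, the palindromic E-box bound by Myc and Max, which reads the same on both strands.
Eif4e (chr3:138527018-138527317, plus strand): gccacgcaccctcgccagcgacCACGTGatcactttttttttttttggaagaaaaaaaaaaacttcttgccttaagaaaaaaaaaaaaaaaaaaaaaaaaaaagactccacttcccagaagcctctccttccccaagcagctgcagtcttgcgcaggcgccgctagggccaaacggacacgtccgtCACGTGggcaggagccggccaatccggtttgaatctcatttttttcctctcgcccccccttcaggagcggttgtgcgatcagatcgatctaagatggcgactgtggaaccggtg
Eif4a1 (chr11:69672374-69672673, minus strand): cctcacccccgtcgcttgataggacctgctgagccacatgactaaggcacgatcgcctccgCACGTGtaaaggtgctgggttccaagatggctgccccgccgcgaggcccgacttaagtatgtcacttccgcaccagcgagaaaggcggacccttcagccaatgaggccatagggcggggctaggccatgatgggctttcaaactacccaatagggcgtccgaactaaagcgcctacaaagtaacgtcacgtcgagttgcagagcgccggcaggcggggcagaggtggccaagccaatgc
Eif4g1 (chr16:20672477-20672776, plus strand): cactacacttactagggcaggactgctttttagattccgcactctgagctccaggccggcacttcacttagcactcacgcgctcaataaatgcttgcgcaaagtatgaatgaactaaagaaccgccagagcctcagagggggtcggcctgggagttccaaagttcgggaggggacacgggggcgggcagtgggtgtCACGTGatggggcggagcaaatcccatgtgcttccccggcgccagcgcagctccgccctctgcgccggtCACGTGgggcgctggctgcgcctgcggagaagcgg
Eif3m (chr2:105016978-105017277, minus strand): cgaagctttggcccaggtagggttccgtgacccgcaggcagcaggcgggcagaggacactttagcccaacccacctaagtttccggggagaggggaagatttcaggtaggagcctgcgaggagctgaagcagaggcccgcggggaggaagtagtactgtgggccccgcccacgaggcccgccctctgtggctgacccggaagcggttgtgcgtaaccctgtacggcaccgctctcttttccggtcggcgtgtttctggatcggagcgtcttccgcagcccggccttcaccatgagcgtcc

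The E-box began at positions -228 and -64 from the start in Eif4e, at -189 in Eif4a1 and at -54 and 15 in Eif4g1, and these letters are not in the Eif3m window. RefSeq gives a further Eif4e window at another annotated start (chr3:138525941-138526240), and those letters are not in it. Nor are they in the windows of the paralogues Eif4a2, Eif4a3, Eif4e2 and Eif4g3. Windows were found for 37 of the 46 tested members, and 10 of them (27.0%) held CACGTG, against 12.1% of 8579 tested genes and 8.09% of all 27025 genes with a window. A gene with several windows counted once if any held it. The 10 were Eif1b, Eif3a, Eif3f, Eif3k, Eif4a1, Eif4e, Eif4g1, Eif4h, Eif5a and Eif5a2. Their median log2 fold change was -0.0066, with 5 below 0, and that of the 27 members without the letters was -0.018, with 16 below 0. No window was found for Eif1a, Eif2b3, Eif3e, Eif3h, Eif3i, Eif3j2, Eif4e3, Eif4g2 and Eif6, so they are in neither set. In that order, the log2 fold changes of these members were -0.40, -0.54, -0.35, 0.13, -0.22, 0.14, 0.15, -0.10 and -0.23. A match describes the letters in the window and not a bound site.

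Eif5 encodes the protein that makes eIF2 hydrolyse its GTP at the start codon. It was 79.0 and 74.6 FPKM under PBS against 65.9 and 60.002 under IL-16 (log2 fold change -0.28, 95% interval -0.48 to -0.086, adjusted p = 0.111), and its groups did not overlap, IL-16 being lower. Eif5b, the gene of the subunit-joining GTPase, was 14.3 and 14.9 FPKM in the vehicle libraries and 13.1 and 15.7 in those given IL-16 (log2 fold change -0.020, adjusted p = 0.925), so the IL-16 libraries held both its lowest and its highest value. Eif6, whose product keeps free large subunits from joining, was 48.6 and 50.1 FPKM under PBS against 47.7 and 37.0 under IL-16 (log2 fold change -0.23, adjusted p = 0.295). Only IL-16 replicate 2 stood clearly below the rest.

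Eif5a, which encodes the hypusine-carrying factor that helps ribosomes past difficult peptide bonds, was the most abundant member once its copy row was added. Summed, it was 523 and 526 FPKM in the vehicle libraries and 497 and 479.8 in those given IL-16 (log2 fold change -0.10, 95% interval -0.31 to 0.10, adjusted p = 0.463). The rows behind the sum were far less even. The row Eif5a was 266 and 340.0 FPKM under PBS against 369 and 245 under IL-16, and the row Eif5a-2 was 257 and 186 FPKM in the vehicle libraries and 129 and 235 in those given IL-16. The copy row held 49.1% and 35.4% of the summed value in the PBS libraries and 25.9% and 48.9% in the IL-16 libraries. The shares differed more within each group than between the group means, whereas the sums stayed within 479.8 to 526 FPKM. A single row of this gene is therefore uncertain. Eif3i showed the same on a smaller scale, with 19.2% and 14.9% of its sum in the copy row with PBS and 17.8% and 9.89% with IL-16. The separate paralogue gene Eif5a2 was low in all libraries, at 2.21 ± 0.231 FPKM under PBS against 2.15 ± 0.0636 FPKM under IL-16 (SD, n = 2 each).

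**Figure D4:**
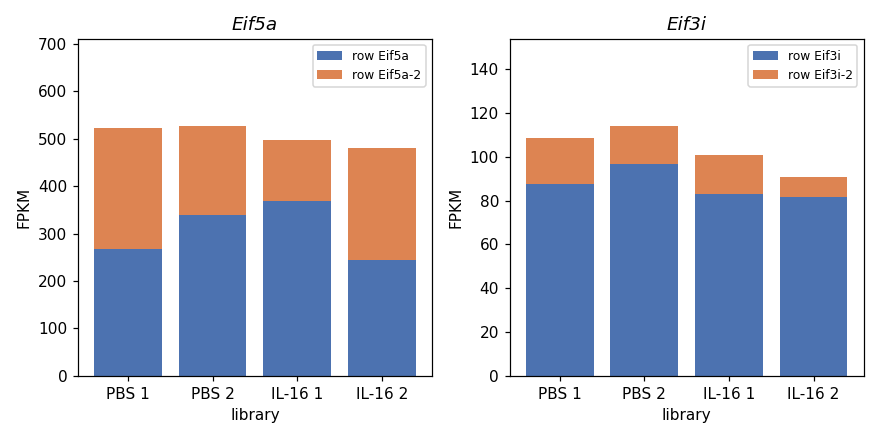
FPKM of Eif5a (left) and Eif3i (right) in each library, as bars stacked from the row that carries the gene symbol (blue) and its numbered copy row (orange). For Eif5a the split moves between libraries of the same group while the height of the whole bar stays between 479.8 and 526 FPKM.

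Transcript length and GC content played no part in choosing the members. Genes were put into 4 equal classes by the length of their longest GENCODE coding transcript. In the shortest class, up to 1963 bases, 15 members had a median log2 fold change of -0.10, with 10 below 0, and the 2576 genes of that length had a median of -0.073. In the classes between, the members had medians of -0.095 and 0.0024, and all genes had medians of -0.033 and -0.047. In the longest class, from 4550 bases, 9 members had a median of -0.020 and all genes one of -0.043. The medians of all genes thus did not rise steadily with length. In IL-16 replicate 2 the shortest class of all genes was at -0.11 relative to the PBS mean and the longest at -0.052, against -0.0098 and -0.032 in IL-16 replicate 1. Across the 46 members, log2 fold change and log2 length had Pearson's r of 0.24 and Spearman's rho of 0.19, and across 10297 genes r was 0.066 and rho 0.038. For GC content, r was 0.18 and rho 0.20 across the members, and r was 0.18 and rho 0.20 across all genes. In IL-16 replicate 1 against the PBS mean, rho with GC content was 0.35 across the members and 0.25 across all genes, and across the 14 eIF3 genes r was 0.70 and rho 0.65. In IL-16 replicate 2 rho was 0.16 across the members and 0.14 across all genes, and across the eIF3 genes r was 0.010. Genes of the same libraries are not independent replicates, and the part of length and GC content in the results was not tested.

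Regulators and partners of initiation were followed through a list of 70 genes, of which 67 were tested and 0 passed in limma (19 at an unadjusted p under 0.05, 8 higher and 11 lower, 28.4% against 25.8% of all tested genes). Their median log2 fold change was -0.044. Deptor, Eef1a2 and Gspt2 did not reach the minimum level. Of the eIF2 kinase genes, Eif2ak2, which encodes the double-stranded RNA sensor PKR, was 9.78 and 10.6 FPKM under PBS against 12.9 and 13.2 under IL-16 (log2 fold change 0.33, 95% interval 0.11 to 0.54, adjusted p = 0.102). Eif2ak1, the haem-regulated kinase gene, was 21.0 and 20.0 FPKM in the vehicle libraries and 23.4 and 25.7 in those given IL-16 (log2 fold change 0.25, 95% interval 0.042 to 0.45, adjusted p = 0.147). Both were higher in both IL-16 libraries, but the other kinase genes were not. Eif2ak3 was 18.2 and 18.3 FPKM under PBS against 17.2 and 17.5 under IL-16 (log2 fold change -0.068). For Eif2ak4 the groups overlapped (log2 fold change -0.035). On the phosphatase side, the stress-induced subunit gene Ppp1r15a (GADD34) was 17.8 and 18.6 FPKM under PBS against 22.0 and 24.4 under IL-16 (log2 fold change 0.33, 95% interval 0.12 to 0.54, adjusted p = 0.0985), and the catalytic subunit gene Ppp1cb was 41.9 and 39.9 FPKM in the vehicle libraries and 31.0 and 30.6 in those given IL-16 (log2 fold change -0.40, 95% interval -0.57 to -0.22, adjusted p = 0.0652). Ppp1cc and Ppp1r15b were also lower in both IL-16 libraries (log2 fold change -0.36 and -0.16), and Ppp1ca overlapped between groups (0.028).

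Atf4, the transcription factor translated when eIF2 is phosphorylated, was 136 and 138 FPKM under PBS against 127 and 119 under IL-16 (log2 fold change -0.15, adjusted p = 0.253). Ddit4, an ATF4 target that restrains mTORC1, was 251 and 234 FPKM in the vehicle libraries and 207 and 162 in those given IL-16 (log2 fold change -0.40, adjusted p = 0.132). Dnajc3, which encodes an inhibitor of eIF2 kinases, and Gcn1, which encodes an activator of the kinase GCN2, stood at -0.19 and -0.15 log2 units (adjusted p = 0.218 and 0.342). Atf4, Ddit4, Dnajc3 and Gcn1 each had their lowest value in IL-16 replicate 2.

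Eif4ebp1, which encodes the eIF4E inhibitor 4E-BP1, was 81.8 and 93.1 FPKM under PBS against 102 and 110.1 under IL-16 (log2 fold change 0.28, 95% interval 0.054 to 0.50, adjusted p = 0.141), higher in both IL-16 libraries. Paip2b, an inhibitor of the poly(A)-binding protein, was 15.0 and 15.1 FPKM in the vehicle libraries and 11.3 and 10.4 in those given IL-16 (log2 fold change -0.44, 95% interval -0.65 to -0.23, adjusted p = 0.0682). Pabpc1, the poly(A)-binding protein gene, was 788 and 769 FPKM under PBS against 958 and 1187 under IL-16 (log2 fold change 0.45, 95% interval 0.14 to 0.77, adjusted p = 0.109), and the helicase gene Ddx3x was 68.7 and 72.5 FPKM in the vehicle libraries and 61.0 and 52.4 in those given IL-16 (log2 fold change -0.31, adjusted p = 0.122). Among mTORC1 genes, Rheb, its activating GTPase, was 19.8 and 20.7 FPKM under PBS against 17.3 and 12.9 under IL-16 (log2 fold change -0.42, adjusted p = 0.141). The S6 kinase gene Rps6kb2 was 11.8 and 11.6 FPKM in the vehicle libraries and 15.1 and 14.5 in those given IL-16 (log2 fold change 0.31, adjusted p = 0.0982).

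Denr and Mcts1 encode the partners of a dimer that recycles small subunits and restarts initiation, and they differed in opposite directions. Denr was 16.8 and 15.3 FPKM under PBS against 18.2 and 24.1 under IL-16 (log2 fold change 0.36, 95% interval 0.024 to 0.70, adjusted p = 0.175). Mcts1 was 27.0 and 24.8 FPKM in the vehicle libraries and 18.9 and 17.3 in those given IL-16 (log2 fold change -0.50, 95% interval -0.71 to -0.28, adjusted p = 0.0636), the smallest p of the list. Neither passed the threshold. For the hypusine enzymes of eIF5A, Dhps and Dohh, the groups overlapped (log2 fold change -0.20 and -0.016). The elongation factor genes Eef1b2 and Eef1d stood at -0.34 and 0.28 log2 units (adjusted p = 0.186 and 0.167). The release factor genes Etf1 and Gspt1 stood at -0.15 and -0.16, and the mitochondrial initiation factor genes Mtif2 and Mtif3 at -0.16 and 0.073, with adjusted p of 0.225 or more.

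**Figure D5:**
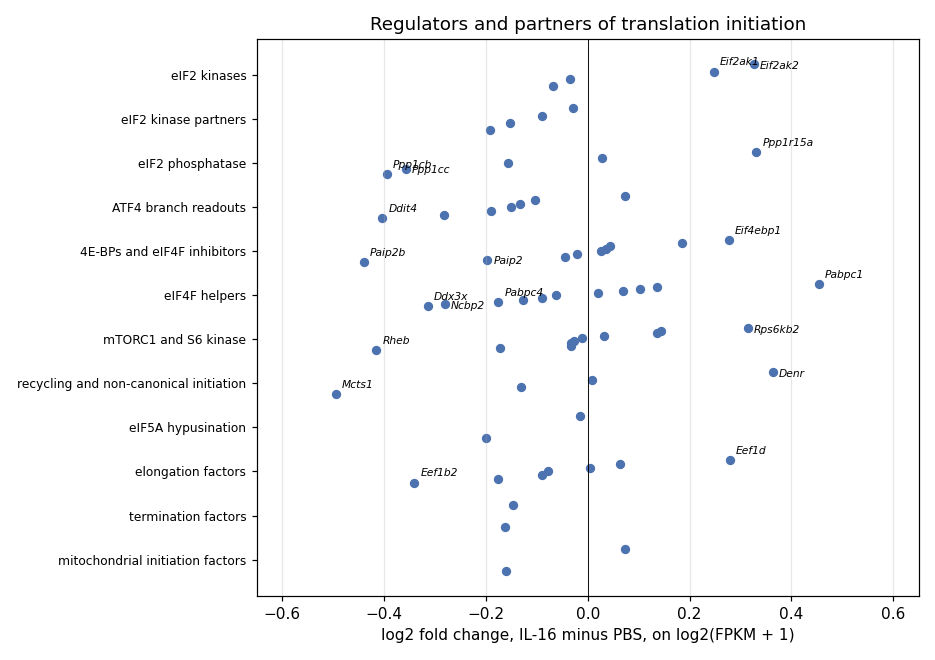
Log2 fold change of the 67 tested regulators and partners of initiation, 1 point per gene in a line per role; names mark genes with an unadjusted p under 0.05. The values run from -0.50 for Mcts1 to 0.45 for Pabpc1, and 0 of the 67 passed after adjustment.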

How the data were processed

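RNA was measured in 4 libraries. Per the labels' protocols, RNA was purified on RNeasy columns and made into polyadenylated libraries with a SMARTer kit. Groups and replicate numbers came from the sample titles, and columns were matched by name. The deposited table of 26334 rows names no unit. Its values were read as FPKM computed by the authors, since they are not whole and column totals differ. The submitters' processing notes name fastp, HISAT2, featureCounts and GRCm39, and how the values were made is not given in the sources used here. Copies of a gene (1607 rows) were summed. Genes reaching 1 FPKM in at least 2 libraries were tested with limma 3.58.1 (R 4.3.3) on log2(FPKM + 1) with a mean-variance trend and group as the sole term. This scale understates changes of low genes. Tests were two-sided and adjusted by Benjamini-Hochberg over all 11307 tested genes, with a threshold of 0.05. The script was tested on simulated data. Alternatives changed pseudocount, filter, scaling, copies, newly assembled rows and libraries. Those for the list of regulators were added after the data were seen. Members and lists were chosen with earlier results of these data known. Named genes were, per factor, the 2 most abundant, the 3 with the smallest p, those with copy rows and paralogues; the remaining members are named for completeness. From the list of regulators, the 2 smallest p per role were named, with the remaining eIF2 kinase and phosphatase genes added for completeness. No interval that needs counts is given, since depth is unknown. GENCODE vM21 and RefSeq, both GRCm38, gave transcript lengths, overlaps and promoters.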

Additional observations from a re-analysis of the deposited data

How the results depend on the processing

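For all tested genes, 0 were called in limma with no filter on low values (3090 of 18361 at an unadjusted p under 0.05), 26 with copies not summed, 436 with the replicate block and 4 to 3149 when a library was left out, against 126. For the members, 1 gene, Eif3m, was called at a pseudocount of 5, at a minimum of 5 FPKM, with values rescaled by median of ratios or to TPM, without newly assembled rows, and with the replicate block, and 0 to 20 when a library was left out. A minimum of 5 FPKM left no value for 3 low members. Over all tested genes, 169 of 11307 were called at a pseudocount of 5 and 170 of 8286 at a minimum of 5 FPKM. The counts were 184 of 11307 with median of ratios, 161 of 11307 with TPM and 184 of 10519 without newly assembled rows. The replicate block gave 436 of 11307. Beside these, 1 call among 43 or 46 tested members is no result about the members as a set. Of the regulators, whose counts were added after seeing the data, 1 (Mcts1) was called with the replicate block and 0 to 21 when a library was left out. Replicate numbers are not stated to mark a shared source, and same-numbered libraries deviated from their group means with a correlation of 0.0277. The members' median log2 fold change ran from -0.092 to -0.036 when a library was left out, beside -0.065 to -0.022 over all tested genes. Under median-of-ratios scaling it was 0.018, beside -0.0028 over all tested genes. Under that scaling, log2 fold changes near 0 turned positive, namely 0.046 for Eif1ad, 0.035 for Eif3g, 0.032 for Eif4b, 0.0087 for Eif5a2 and 0.027 for Eif5b. After rescaling to TPM they were 0.026 for Eif1ad, 0.013 for Eif3g, 0.010 for Eif4b and 0.0067 for Eif5b. Leaving out a library turned the sign of 10 members, whose ranges were -0.042 to 0.038 for Eif1ad, -0.061 to 0.085 for Eif2b4, -0.12 to 0.12 for Eif2s3x, -0.11 to 0.076 for Eif3g, -0.68 to 0.97 for Eif3j2, -0.078 to 0.10 for Eif3k, -0.064 to 0.028 for Eif4b, -0.061 to 0.89 for Eif4e, -0.099 to 0.048 for Eif5a2 and -0.14 to 0.10 for Eif5b. When a library was left out, the counts of members and of regulators were highest in the fit that called most genes of the whole table. The cause of the moved counts was not tested. Depth is unknown, so precision rests on 2 libraries a group.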

Other observations

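Eif2s3y, the Y-linked copy of the eIF2 γ subunit gene, was listed at 0 in all 4 libraries, while its X-linked counterpart Eif2s3x lay between 64.9 and 77.0 FPKM. The Y-linked genes Kdm5d and Uty, looked up after that was seen, were also listed at 0 in all libraries, and Ddx3y did not exceed 0.0103 FPKM. Myc, whose E-box was searched for in the promoter windows and whose level was looked up afterwards, was 63.9 and 64.8 FPKM under PBS against 79.5 and 114 under IL-16 (limma log2 fold change 0.56, adjusted p = 0.116), higher in both IL-16 libraries and highest in replicate 2.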
